A study of Mus musculus with 16 samples.

Results

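The genes described here are 9 genes of epithelial sodium, chloride and bicarbonate transport, taken from the 21965 genes of a read count table by their symbols, with no threshold on their levels. They are Scnn1a, Scnn1b and Scnn1g, which encode the subunits of the epithelial sodium channel, the sodium/proton exchangers Slc9a2 and Slc9a3, the chloride/bicarbonate exchangers Slc26a3 and Slc26a6, the chloride channel Cftr and the potassium channel Kcnq1. RNA-seq was performed on the terminal ileum of 16 male C57BL/6 mice with 1 library per mouse. WT PF and fat-1 PF had 4 mice each, WT EtOH had 3 and fat-1 EtOH 5. The fat-1 mice, labelled Fat1+/-, were heterozygous for a C. elegans n3 fatty acid desaturase transgene that is active in all tissues, and the WT mice were their littermates. All mice were young adults on a Lieber-DeCarli liquid diet. In the EtOH groups ethanol was raised stepwise to 6% (v/v), which was held for 3 weeks, and in the PF groups maltose dextrin replaced it in pair-fed, isocaloric amounts.

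In the intestine, sodium and chloride are taken up without a net movement of charge when a sodium/proton exchanger works beside a chloride/bicarbonate exchanger in the brush border. Further along the gut, the distal colon also takes up sodium through the epithelial sodium channel, a complex of alpha, beta and gamma subunits that aldosterone controls. Chloride is secreted through Cftr, mainly in crypts, while basolateral potassium channels such as Kcnq1 keep the electrical driving force. These genes change along the length of the gut, so the region that each library represents was examined first.

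The 5 ileal markers, among them the bile acid transporter Slc10a2 and the bile acid binding protein Fabp6, summed to between 404 and 8049 CPM (read counts scaled to library size), and the 2 lowest libraries were fat-1 PF 2 (461 CPM) and fat-1 PF 4 (404 CPM). The 7 markers of large intestine summed to 29.1 to 210 CPM in 13 libraries. In the other 3 libraries they summed to 5059 CPM (WT EtOH 2), 13115 CPM (fat-1 EtOH 3) and 14142 CPM (fat-1 EtOH 4), and most of this was the colonic carbonic anhydrase Car1. Of these 7 markers, Hoxd13 was at 0 counts in 15 libraries and Hoxb13 in 13, with at most 2 counts, and both mark the most distal gut. The 7 markers of proximal small intestine, such as the lactase gene Lct and Apoa4, summed to 2179 to 58837 CPM in the 8 PF libraries and to 39.9 to 563 CPM in the 8 EtOH libraries. The 2 diets did not overlap in this sum, and all 7 of these markers fell with EtOH in fat-1 mice and in the effect of ethanol averaged over genotypes. Of all genes tested, 37.4% passed in the former comparison and 35.9% in the latter, in either direction. The 5 smooth muscle markers summed to 817 to 1270 CPM with PF and to 1622 to 3543 CPM with EtOH, and all 5 rose in the same comparisons. Of 6 goblet cell markers 3 rose with EtOH in fat-1 mice and none fell, and their sum was 6685 to 10402 CPM with PF and 9329 to 15971 CPM with EtOH. The 7 epithelium markers, of which 1 rose and 2 fell, summed to 8312 and 8138 CPM in fat-1 EtOH 3 and 4 and to 11158 to 17566 CPM elsewhere. These calls among goblet cell and epithelium markers are near the 37.4% of all genes. The 5 crypt base markers, none of which passed the test, summed to 59.4 and 66.5 CPM in the same pair and to 294 to 658 CPM elsewhere. The 5 B cell markers, of which none passed either, reached 422 CPM in fat-1 EtOH 5 and at most 87.5 CPM in the other 15 libraries. Libraries held 8422645 to 11438539 counted reads, so 3 counts, used here as the floor for a gene not seen, were 0.246 to 0.421 CPM. In bulk tissue, fewer cells of a type and less RNA per cell cannot be told apart. All 5 large intestine markers that could be tested rose with EtOH in fat-1 mice, and the 5 ileal markers did not pass the test. The large intestine markers are those by which the 3 libraries were told apart, so their rise gives no separate support. In fat-1 EtOH 1, 2 and 5 they summed to 62.9, 210 and 148 CPM. Values are given with and without the 3 libraries with large intestine markers, where these carry them.

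**Figure D1:**
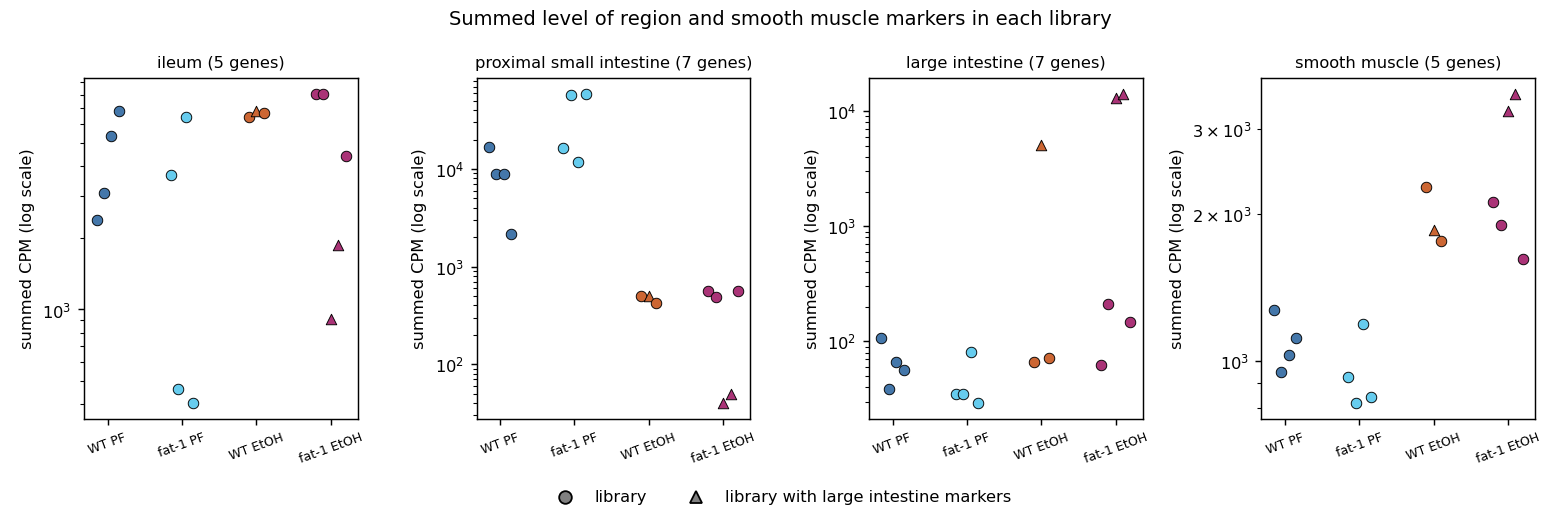
Summed CPM (log scale) of markers of ileum, proximal small intestine, large intestine and smooth muscle in each library, by group; triangles are the 3 libraries with large intestine markers. These 3 libraries sit above 5000 CPM for large intestine, where the other 13 reach at most 210 CPM, and proximal markers separate the PF from the EtOH libraries.

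Scnn1b and Scnn1g lie on the same strand of chromosome 7 with 96.6 kb and no other gene of the table between them. The 250 bases before their starts are shown because both genes were highest in the same 2 libraries, fat-1 EtOH 3 and 4. They are given beside a stretch of the Slc26a3 promoter, a gene that was also high there. The sequences are from RefSeq (build GRCm38.p6, plus strand), at chr7:121864788-121865037, chr7:121734229-121734478 and chr12:31438119-31438199, which covers 100 to 20 bases before the RefSeq start of Slc26a3. This RefSeq start lies inside the span given below for Slc26a3, which begins further upstream at chr12:31390871. The Scnn1b and Scnn1g windows end just before the spans of their genes. Capitals mark matches to 5 short motifs that were searched on both strands.
Scnn1b: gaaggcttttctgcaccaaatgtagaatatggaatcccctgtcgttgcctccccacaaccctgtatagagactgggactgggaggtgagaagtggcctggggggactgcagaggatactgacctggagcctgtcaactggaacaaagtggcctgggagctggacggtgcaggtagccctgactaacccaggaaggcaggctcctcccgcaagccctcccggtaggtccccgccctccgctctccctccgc
Scnn1g: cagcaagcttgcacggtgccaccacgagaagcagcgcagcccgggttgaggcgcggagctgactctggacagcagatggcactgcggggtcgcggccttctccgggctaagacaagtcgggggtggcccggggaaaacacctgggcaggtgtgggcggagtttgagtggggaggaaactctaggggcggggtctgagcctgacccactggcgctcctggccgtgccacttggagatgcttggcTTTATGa
Slc26a3: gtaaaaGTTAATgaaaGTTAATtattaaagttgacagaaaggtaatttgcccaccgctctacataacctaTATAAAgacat

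The core promoter box was searched as TATAAA, the site of GATA factors as AGATAA, the core site of caudal-type homeobox factors as TTTATG, an arm of the HNF1 site as GTTAAT and an arm of the steroid receptor site as TGTTCT. Of 32817 promoter windows of 250 bases, these motifs were found in 12.4%, 9.99%, 10.8%, 6.44% and 16.1%, respectively. The Scnn1b window held none of the 5, and the Scnn1g window held 1, TTTATG. The Slc26a3 window held TATAAA 30 bases before the start and GTTAAT at 94 and at 84 bases. The windows of Slc9a3, Slc26a6 and Cftr held none, and the table had windows for 6 of the 9 genes. A match to such short motifs describes letters only.

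In GRCm38 all 9 genes are protein-coding and on the plus strand. The sodium channel subunits are Scnn1a (ENSMUSG00000030340) at chr6:125320659-125344943, Scnn1b (ENSMUSG00000030873) at chr7:121865038-121918514 and Scnn1g (ENSMUSG00000000216) at chr7:121734479-121768475. The exchangers are Slc9a2 (ENSMUSG00000026062) at chr1:40680574-40769273, Slc9a3 (ENSMUSG00000036123) at chr13:74121457-74169442, Slc26a3 (ENSMUSG00000001225) at chr12:31390871-31473917 and Slc26a6 (ENSMUSG00000023259) at chr9:108853283-108913049, and the channels are Cftr (ENSMUSG00000041301) at chr6:18170687-18322768 and Kcnq1 (ENSMUSG00000009545) at chr7:143106362-143427042.

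Per kilobase of exon, the WT PF means (n = 4, ± SD) ranked Slc26a6 first (101 CPM per kb ± 7.83), then Slc9a2 (38.3 ± 2.05), Slc26a3 (24.6 ± 2.89), Slc9a3 (23.1 ± 11.6), Kcnq1 (15.5 ± 1.84), Cftr (11.9 ± 1.82) and Scnn1a (3.87 ± 0.28). Slc26a3 and Slc9a3 did not differ beyond their spread, nor did Slc9a3 and either Kcnq1 or Cftr. Single WT PF libraries of Kcnq1 (lowest 13.72 CPM per kb) and Cftr (highest 13.74) also overlapped. So did those of Slc9a2 (lowest 35.4) and Slc9a3 (highest 37.0). Scnn1b (0.010 CPM per kb) and Scnn1g (0.0091 CPM per kb) were last, each with 1 count in 1 of 4 libraries. In fat-1 EtOH the means were 52.1 CPM per kb ± 47.5 for Slc26a6 and 43.5 ± 13.6 for Slc9a2 (SD, n = 5), which did not differ beyond their spread.

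Scnn1a, which encodes the alpha subunit, was counted in every library. Its levels were 15.5, 17.0, 16.9 and 14.5 CPM in WT PF, 14.2, 18.0, 17.1 and 12.8 CPM in fat-1 PF, 17.1, 20.6 and 17.1 CPM in WT EtOH, and 17.5, 19.1, 54.1, 41.8 and 14.5 CPM in fat-1 EtOH. The 2 high values belong to fat-1 EtOH 3 and 4, the libraries with the most large intestine markers, and the other 14 libraries lie between 12.8 and 20.6 CPM. Scnn1a rose with EtOH in fat-1 mice by 0.92 on the log2 scale (SE 0.33, edgeR adjusted p = 0.0386). With the 3 libraries with large intestine markers left out the value was 0.17 (SE 0.14, edgeR adjusted p = 0.399). In WT EtOH vs WT PF it was 0.19 (SE 0.37, edgeR adjusted p = 0.850), although the WT EtOH libraries all lay above the WT PF libraries.

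Scnn1b encodes the beta subunit, without which the channel carries little current. It had 1, 0, 0 and 0 counts in WT PF, 0 counts in each of 4 fat-1 PF libraries, 0, 11 and 0 counts in WT EtOH, and 0, 3, 83, 116 and 0 counts in fat-1 EtOH. Its 3 libraries above the floor of 3 counts are the 3 with large intestine markers, at 1.15, 6.81 and 10.3 CPM. Scnn1b was higher in fat-1 EtOH (3.48 CPM ± 4.82, SD, n = 5) than in fat-1 PF, by at least 9.18-fold against 3 counts per library averaged over that group. This bound was 4.65-fold without fat-1 EtOH 4, and without both fat-1 EtOH 3 and 4 the mean (0.0850 CPM) lay under the floor (0.379 CPM). Groups overlapped, since 2 fat-1 EtOH libraries were also at 0. Scnn1b passed the filter on low counts only through the 3 libraries in which it was high, and was not tested without them, so its adjusted p (0.0409 with edgeR, 0.0915 with DESeq2 and 0.448 with limma voom) gives no support to this difference.

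Scnn1g, for the gamma subunit, was too low to pass the filter on low counts and was not tested. It had 14 and 22 counts in fat-1 EtOH 3 and 4 and at most 2 counts in the other 14 libraries. The WT EtOH library with large intestine markers had 1 count. All 3 subunits thus reached their highest levels in the same 2 libraries. The part of large intestine tissue in these values was not tested.

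**Figure D2:**
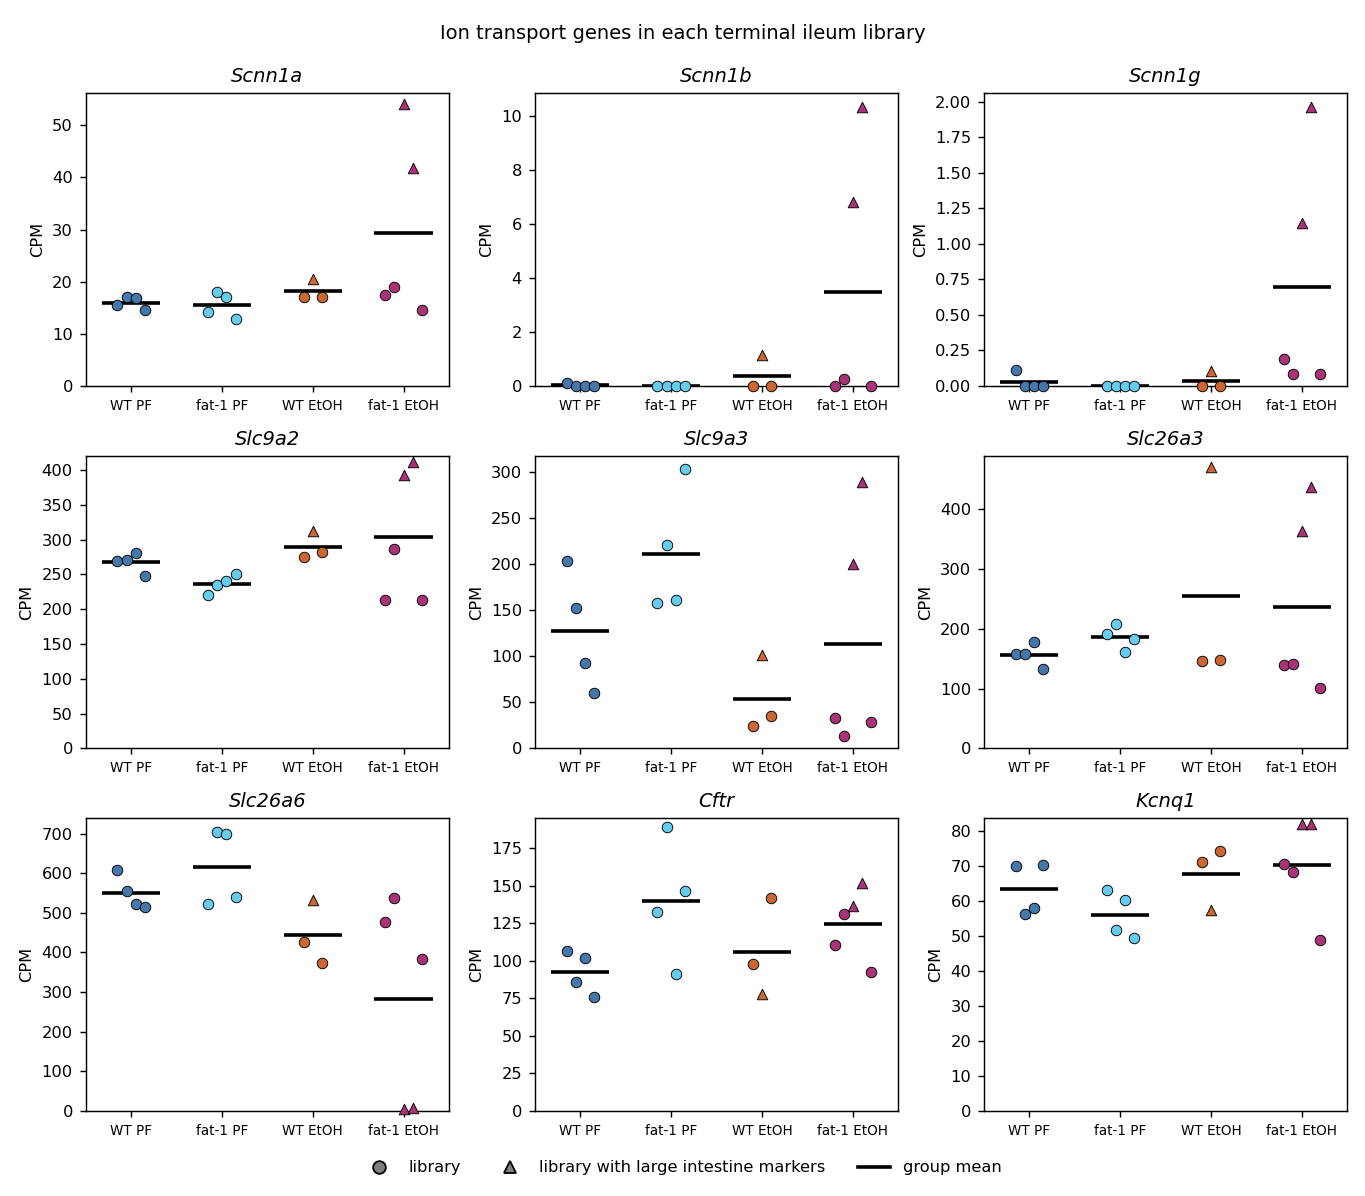
Level (CPM, linear scale from 0) of each of the 9 genes in every library, by group; points are libraries, triangles the 3 with large intestine markers, and lines are group means. Scnn1a, Scnn1b and Scnn1g are highest in fat-1 EtOH 3 and 4, where Slc26a6 is at 5.82 and 7.58 CPM, and Slc9a3 in the other 5 EtOH libraries lies below all 8 PF libraries.

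Slc9a2 (NHE2) and Slc9a3 (NHE3) exchange luminal sodium for protons, and Slc9a3 is the main route of sodium uptake in the small intestine. Slc9a2 was at 270, 271, 281 and 247 CPM in WT PF, 221, 235, 240 and 251 CPM in fat-1 PF, 275, 312 and 283 CPM in WT EtOH, and 214, 287, 393, 411 and 213 CPM in fat-1 EtOH. It was highest in the 3 libraries with large intestine markers, at 312 to 411 CPM. The ethanol difference was 0.12 on the log2 scale in WT (SE 0.20, edgeR adjusted p = 0.830) and 0.36 in fat-1 mice (SE 0.18, edgeR adjusted p = 0.120), and 0.06 and 0.04 without these 3 libraries.

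Slc9a3 varied widely among libraries of the same diet. Its levels were 203, 152, 92.6 and 59.9 CPM in WT PF, 158, 221, 161 and 303 CPM in fat-1 PF, 24.6, 102 and 35.5 CPM in WT EtOH, and 33.4, 13.7, 200.1, 288 and 29.0 CPM in fat-1 EtOH. The EtOH libraries fall into 5 at 13.7 to 35.5 CPM, below all 8 PF libraries (59.9 to 303 CPM), and the 3 with large intestine markers at 102 to 288 CPM. With all libraries the ethanol difference did not pass the edgeR test, at -1.24 on the log2 scale in WT (SE 0.88, edgeR adjusted p = 0.545) and -0.90 in fat-1 mice (SE 0.74, edgeR adjusted p = 0.353). With limma voom, which gave each library a weight, it passed in both genotypes, at -1.86 in WT (adjusted p = 0.0208) and -2.68 in fat-1 mice (adjusted p = 0.0123). Without the 3 libraries, Slc9a3 fell by 3.03 on the log2 scale with EtOH in fat-1 mice (SE 0.46, edgeR adjusted p = 0.00209) and was at -2.55 averaged over genotypes (SE 0.35, edgeR adjusted p = 9.03e-04). In WT mice it was then -2.08 (SE 0.51, edgeR adjusted p = 0.0848). When fat-1 PF 2 and 4, the libraries low in ileal markers, were also left out, Slc9a3 still fell by 2.64 in fat-1 mice (edgeR adjusted p = 0.0182) and by 2.35 averaged over genotypes (edgeR adjusted p = 0.00337).

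Proximal markers and Slc9a3 moved together in some libraries and apart in others. The PF library lowest in Slc9a3, WT PF 4 (59.9 CPM), was also the PF library lowest in the 7 proximal markers (2179 CPM), and the highest, fat-1 PF 4 (303 CPM), had the most (58837 CPM). The 5 EtOH libraries without large intestine markers had 425 to 563 CPM of proximal markers. The 3 libraries with large intestine markers did not follow this, since fat-1 EtOH 3 and 4 had the fewest proximal markers of all 16 (39.9 and 49.0 CPM) with Slc9a3 at 200.1 and 288 CPM, and WT EtOH 2 had 495 CPM with Slc9a3 at 102 CPM. The part of gut position in the Slc9a3 values was not tested.

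A ratio of both exchangers within a library depends on how libraries are scaled only through the 0.5 CPM added to each level. With 1 CPM added, the difference between diets given below was 1.74. The log2 ratio of Slc9a2 to Slc9a3 averaged 2.68 ± 0.96 in WT EtOH (SD, n = 3) against 1.22 ± 0.74 in WT PF (n = 4), and 2.27 ± 1.55 in fat-1 EtOH (n = 5) against 0.22 ± 0.39 in fat-1 PF (n = 4). It was higher with EtOH by 1.76 on the log2 scale over both genotypes (exact permutation test of diet within genotype, two-sided, p = 0.00567, 0.0170 adjusted over 3 ratios), by 1.46 in WT and by 2.05 in fat-1 mice. This difference passed the test whichever single library was left out, between 1.5 and 2.02. Without the 3 libraries with large intestine markers the difference was 2.53 (exact permutation test, two-sided, 0.00571 adjusted). The groups overlapped in both genotypes through WT EtOH 2 (1.61) and fat-1 EtOH 4 (0.51), while fat-1 EtOH 3 (0.97) lay above every fat-1 PF library.

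Slc26a3 (DRA) and Slc26a6 (PAT1) exchange luminal chloride for bicarbonate. Slc26a3 is the main such exchanger of the colon, and Slc26a6 that of the upper small intestine. Slc26a3 was at 158, 158, 178 and 133 CPM in WT PF, 191, 208, 161 and 184 CPM in fat-1 PF, 146, 472 and 148 CPM in WT EtOH, and 140, 141, 364, 438 and 102 CPM in fat-1 EtOH. Its 3 highest values, 364 to 472 CPM, are those of the libraries with large intestine markers, and the other 13 lie at 102 to 208 CPM. The ethanol difference changed sign with these libraries. It was 0.35 in fat-1 mice (SE 0.43, edgeR adjusted p = 0.539) and 0.70 in WT mice (SE 0.48, edgeR adjusted p = 0.524). Without them, Slc26a3 fell by 0.52 on the log2 scale with EtOH in fat-1 mice (SE 0.14, edgeR adjusted p = 0.0152) and by 0.30 averaged over genotypes (SE 0.10, edgeR adjusted p = 0.0387), and was -0.09 in WT mice (edgeR adjusted p = 0.784). Neither fall passed when fat-1 PF 2 and 4 were also left out, at -0.45 in fat-1 mice (edgeR adjusted p = 0.0862) and -0.27 averaged over genotypes (edgeR adjusted p = 0.0955).

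Slc26a6 was at 607, 554, 521 and 514 CPM in WT PF, 521, 704, 700.0 and 541 CPM in fat-1 PF, 427, 532 and 374 CPM in WT EtOH, and 476, 537, 5.82, 7.58 and 384 CPM in fat-1 EtOH. In fat-1 EtOH 3 and 4 it was thus down to 71 and 85 counts, where every other library had 4405 counts or more. WT EtOH 2, the third library with large intestine markers, kept 532 CPM of Slc26a6 while its Slc26a3 was at 472 CPM. Its ileal markers summed to 6829 CPM, against 913 and 1866 CPM in fat-1 EtOH 3 and 4. The difference between fat-1 EtOH and fat-1 PF was -1.13 (SE 0.88, edgeR adjusted p = 0.325) and that in WT mice -0.31 (SE 1.01, edgeR adjusted p = 0.917). Without the 3 libraries, Slc26a6 fell by 0.42 averaged over genotypes (SE 0.11, edgeR adjusted p = 0.0152), with -0.38 in fat-1 mice (edgeR adjusted p = 0.0756) and -0.46 in WT mice (edgeR adjusted p = 0.175).

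The log2 ratio of Slc26a3 to Slc26a6 lay between -2.12 and -1.33 in 13 libraries, at -0.17 in WT EtOH 2, and at 5.85 and 5.76 in fat-1 EtOH 3 and 4. Its difference between diets was 1.86 (exact permutation test, two-sided, p = 0.122, 0.122 adjusted over 3 ratios), and 0.11 without the 3 libraries (exact permutation test, two-sided, 0.686 adjusted). The log2 ratio of Scnn1b plus Scnn1g to Scnn1a did not pass the test, with a difference between diets of 0.81 (exact permutation test, two-sided, p = 0.0977, 0.122 adjusted over 3 ratios), and of 0.06 without the 3 libraries. Both genes were at or near 0 counts in most libraries, so that this ratio depends on the 0.5 CPM added to each level, and with 1 CPM added the difference was 0.49.

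**Figure D3:**
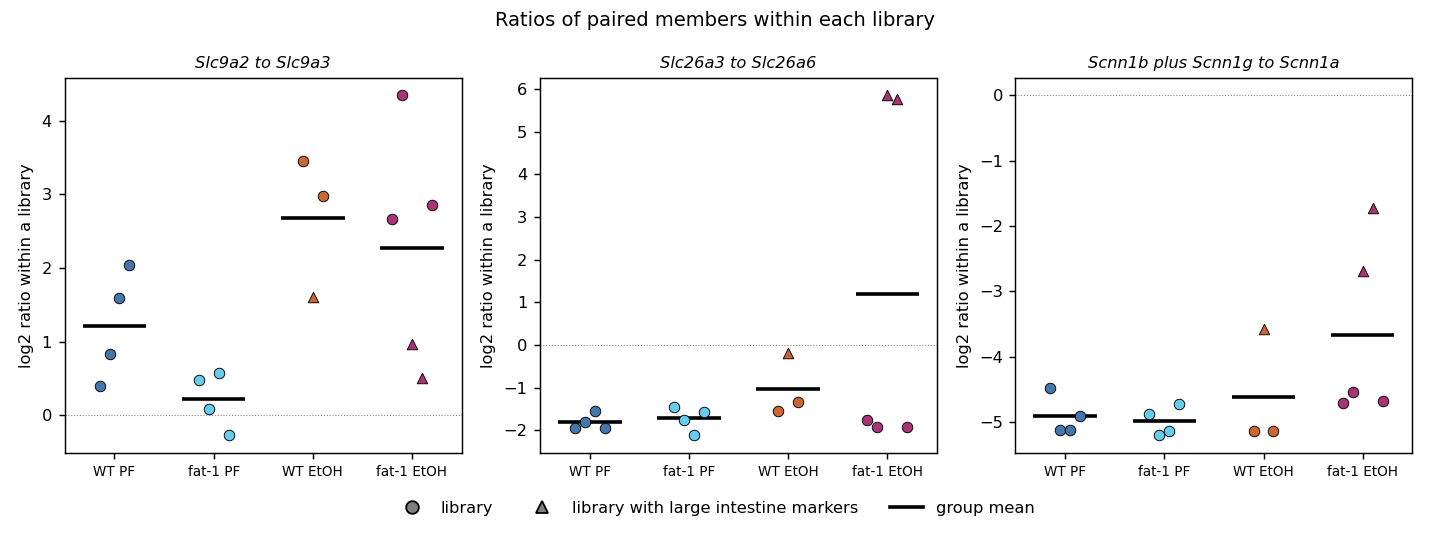
Log2 ratios of Slc9a2 to Slc9a3, Slc26a3 to Slc26a6, and Scnn1b plus Scnn1g to Scnn1a within each library, by group; points are libraries, triangles the 3 with large intestine markers, and lines are group means. The Slc9a2 to Slc9a3 ratio is higher with EtOH (difference 1.76), and the Slc26a3 to Slc26a6 ratio is above 5 in fat-1 EtOH 3 and 4 only.

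Cftr, the cyclic AMP-activated chloride channel, was at 107, 86.1, 102 and 76.0 CPM in WT PF, 133, 189, 90.9 and 147 CPM in fat-1 PF, 97.5, 77.7 and 142 CPM in WT EtOH, and 110, 131, 136, 151 and 92.5 CPM in fat-1 EtOH. It was the member with the largest genotype difference relative to its error under PF, 0.59 on the log2 scale (SE 0.23, edgeR adjusted p = 0.281), with 3 of 4 fat-1 PF libraries above every WT PF library. Of these, fat-1 PF 2 (189 CPM) and fat-1 PF 4 (147 CPM) are the libraries low in ileal markers, and the difference was 0.26 (edgeR adjusted p = 0.908) with both of them and the 3 libraries with large intestine markers left out. Its ethanol difference was 0.19 in WT (SE 0.24, edgeR adjusted p = 0.761) and -0.17 in fat-1 mice (SE 0.21, edgeR adjusted p = 0.545). The 3 libraries with large intestine markers, at 77.7 to 151 CPM, lay within the range of the others (76.0 to 189 CPM).

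Kcnq1, which recycles potassium across the basolateral membrane, was the most even member, at 69.8, 56.1, 57.8 and 70.0 CPM in WT PF, 63.0, 51.7, 60.3 and 49.2 CPM in fat-1 PF, 71.1, 57.3 and 74.0 CPM in WT EtOH, and 70.4, 68.1, 81.8, 81.9 and 48.8 CPM in fat-1 EtOH. Groups overlapped in every comparison. Its difference with EtOH in fat-1 mice was 0.33 (SE 0.15, edgeR adjusted p = 0.0910), and 0.18 without the 3 libraries with large intestine markers (edgeR adjusted p = 0.361). Kcnq1 and Cftr each share exonic bases with an antisense gene, 121 with Kcnq1ot1 and 129 with Gm15592. Whether reads were counted by strand is not given in the sources used here.

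Counted over the whole set, 8 of the 9 genes were tested. With EtOH in fat-1 mice 2 of 8 rose (Scnn1a and Scnn1b) and none fell, with a median log2 difference of 0.34, while 37.4% of the 13811 genes tested passed, at a median of 0.05. Scnn1b was tested only through the libraries in which it was high, and 1 of the other 7 members passed. Calls of 2 of 8 are near what this background gives. DESeq2 called 1 member, Scnn1a (40.3% of all genes), voom called 1, Slc9a3, which was lower (26.8%), and upper-quartile normalization gave 4, Scnn1b among them (41%). In WT EtOH vs WT PF edgeR called 0 of 8 members, with 0 at an unadjusted p under 0.05, against 0.0796% of all genes. There DESeq2 called 0 (2.11% of all genes) and voom 1, Slc9a3 (20.7%). Averaged over genotypes, 0 of 8 members passed (2 at an unadjusted p under 0.05), against 35.9% of all genes, with 0 by DESeq2 (39%) and 1 by voom (42.5%), again Slc9a3. Groups did not overlap for 1 of 8 members in WT EtOH vs WT PF (24.3% of all genes), for 0 with EtOH in fat-1 mice (24%) and for 0 in fat-1 PF vs WT PF (6.87%).

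Without the 3 libraries with large intestine markers, 7 members were tested. Of these, 2 fell and none rose with EtOH in fat-1 mice (29.7% of all genes called), 3 fell and none rose averaged over genotypes (32.9%), and 0 passed in WT mice (0.189%). The members that passed were Slc9a3 and Slc26a3, with Slc26a6 in the averaged effect, and neither of the 2 members that rose with all 16 libraries was among them. Scnn1b was no longer tested there. With fat-1 PF 2 and 4 also left out, 1 of 7 members fell with EtOH in fat-1 mice (Slc9a3, 11.9% of all genes called), 2 fell averaged over genotypes (Slc9a3 and Slc26a6, 27.6%) and 0 passed in WT mice (3.41%).

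Slc9a2, Slc26a3 and Kcnq1 were at their lowest of all 16 libraries in fat-1 EtOH 5, the library with the most B cell markers. Other libraries were nearly as low in Slc9a2 (213 CPM, against 214 CPM in fat-1 EtOH 1) and Kcnq1 (48.8 CPM, against 49.2 CPM in fat-1 PF 4). Without fat-1 EtOH 5, 3 of the 7 members other than Scnn1b rose with EtOH in fat-1 mice (37.2% of all genes called), with Slc9a2 at 0.48 (edgeR adjusted p = 0.0328) and Kcnq1 at 0.45 (edgeR adjusted p = 0.0104) beside Scnn1a. Scnn1b was called as well, with the same limit as above. The part of B cells in these values was not tested.

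**Figure D4:**
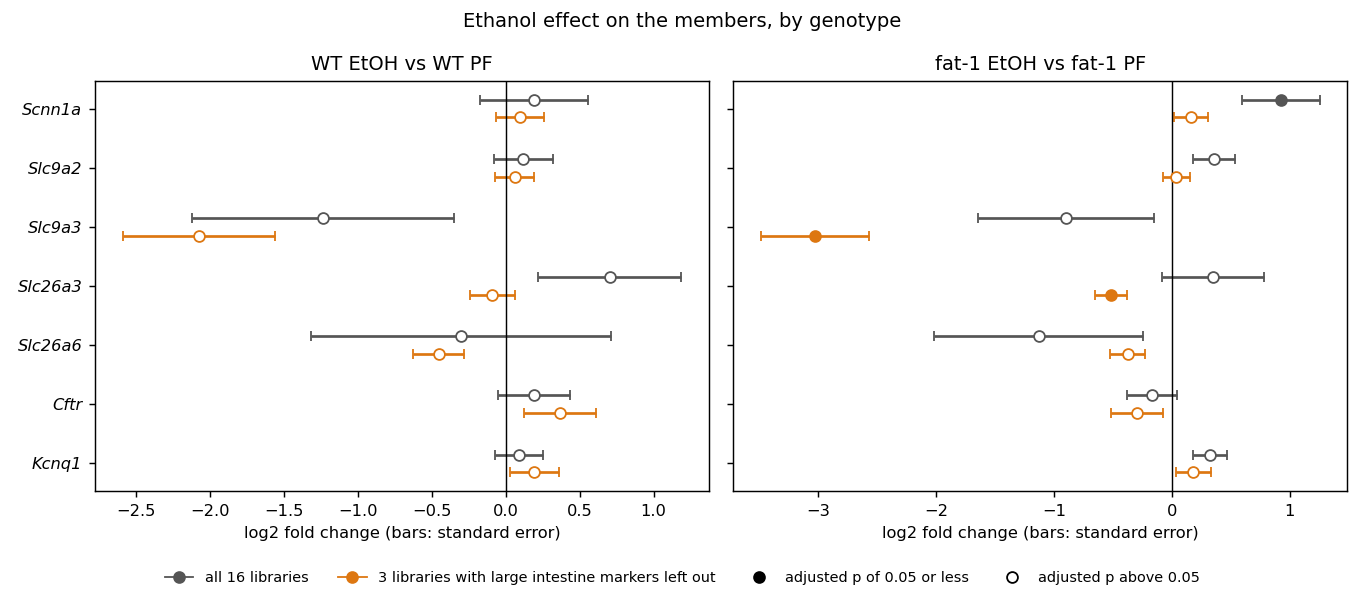
Log2 fold change with ethanol in WT (left) and fat-1 mice (right) for the 7 members tested in both fits, with all 16 libraries (grey) and without the 3 libraries with large intestine markers (orange); bars are standard errors and filled points have an adjusted p of 0.05 or less. In fat-1 mice Scnn1a goes from 0.92 to 0.17, Slc9a3 from -0.90 to -3.03, and Slc26a3 from 0.35 to -0.52.

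Genotype was compared within each diet. In fat-1 PF vs WT PF edgeR called 0 of 8 members (1 at an unadjusted p under 0.05, Cftr), against 0% of all genes, and in fat-1 EtOH vs WT EtOH 0 of 8 (0 at an unadjusted p under 0.05), against 0.00724%. The interaction of genotype and diet called 0 of 8 (0 at an unadjusted p under 0.05), against 0% of all genes, with adjusted p between 0.630 for Scnn1a and 0.929 for Slc9a3. DESeq2 and voom also called 0 members in these 3 comparisons, against 2.56% and 0.217% of all genes in fat-1 PF vs WT PF, 0.0363% and 0.00724% in fat-1 EtOH vs WT EtOH, and 0% with either tool for the interaction. An ethanol effect on a member is thus not shown to differ between genotypes. For Scnn1a the interaction was 0.73 on the log2 scale (SE 0.49), which came to 0.07 (SE 0.22) without the 3 libraries.

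Of 38 further ion transport genes in 6 roles, 35 were tested, of which Best2 and Slc26a1 passed the filter only through the 3 libraries with large intestine markers. Of the other 33, 18 passed with EtOH in fat-1 mice, 8 higher and 10 lower, at a median of 0.11, beside 37.4% of all genes. Averaged over genotypes, 18 of these 33 also passed, 8 higher and 10 lower (35.9% of all genes), while edgeR called 0 of 35 in WT EtOH vs WT PF (5 at an unadjusted p under 0.05, 0 with DESeq2, and 9 with voom, where 20.7% of all genes passed). Without the 3 libraries with large intestine markers 16 of 33 tested passed in fat-1 mice, 5 higher and 11 lower (29.7% of all genes). With fat-1 PF 2 and 4 also left out, 5 of 33 passed (11.9% of all genes), which were Hsd11b2 and Ano1, both higher, and Slc9a3r1, Guca2b and Atp1b1, all lower. The counts by role that follow are to be read against the same shares.

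Of 7 genes that control the sodium channel, 2 rose and 2 fell with EtOH in fat-1 mice. Hsd11b2, which protects the mineralocorticoid receptor from glucocorticoids, held 27.5 to 162 CPM with EtOH and 2.70 to 19.5 CPM with PF in fat-1 mice. It rose by 2.94 on the log2 scale (SE 0.69, edgeR adjusted p = 0.00524), and by 1.53 without the 3 libraries (edgeR adjusted p = 0.0263) and 0.86 without all 5 (edgeR adjusted p = 0.0193). Its WT libraries held 15.5 to 23.7 CPM with PF and 30.4, 80.6 and 32.3 CPM with EtOH. Usp2, a deubiquitinase, fell by 0.83 (SE 0.17, edgeR adjusted p = 0.00272), and by 0.74 without the 3 libraries, and St14, the membrane protease matriptase, fell by 0.44 averaged over genotypes (edgeR adjusted p = 0.00363).

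Among 7 genes of sodium/proton exchange, 2 fell, Slc9a3r1 and Pdzd3, which both encode scaffolds that bind NHE3. Slc9a3r1 fell by 1.19 (edgeR adjusted p = 0.0167), and by 0.67 without the 3 libraries with large intestine markers (edgeR adjusted p = 0.00693). Pdzd3 fell by 0.71 (edgeR adjusted p = 0.0181), and was at -0.38 without them (edgeR adjusted p = 0.0575). Pdzk1, another scaffold of the brush border, had the lowest value, -1.32 (SE 1.00, edgeR adjusted p = 0.309), and Slc9a3r2 the highest, 0.22 (edgeR adjusted p = 0.364). Pdzk1 was at 2.38 and 2.50 CPM in fat-1 EtOH 3 and 4 and at 293 CPM or more in the other 14 libraries, the same pair of libraries in which Slc26a6 was lowest. Without the 3 libraries Pdzk1 fell by 0.56 (edgeR adjusted p = 0.0484).

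Of 4 genes of anion exchange other than Best2 and Slc26a1, Slc4a2 and Slc26a2 rose and none fell. Best2, a bicarbonate channel of colonic goblet cells, had 19 counts in WT EtOH 2, 67 and 99 counts in fat-1 EtOH 3 and 4, and at most 2 counts elsewhere. It was at least 7.60-fold higher in fat-1 EtOH than the floor of fat-1 PF, or 3.68-fold without fat-1 EtOH 4, with no test to be read from it. Slc4a7, a sodium-bicarbonate cotransporter, was lowest at -0.65 (SE 0.39, edgeR adjusted p = 0.205) and fell by 1.23 without the 3 libraries (edgeR adjusted p = 0.0332), when none of the 4 genes rose. With fat-1 PF 2 and 4 also left out, Slc4a7 was at -0.52 and did not pass (edgeR adjusted p = 0.289).

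Of 7 chloride secretion genes, 2 rose and 3 fell, with and without the 3 libraries. Ano1, a calcium-activated chloride channel that is also found in interstitial cells of Cajal, held 12.5 to 34.3 CPM with EtOH and 5.05 to 9.57 CPM with PF in fat-1 mice, and rose by 1.43 (SE 0.29, edgeR adjusted p = 0.00220), and by 0.86 without the 3 libraries (edgeR adjusted p = 0.00609). Guca2b, for the peptide uroguanylin that stimulates Cftr through cyclic GMP, held 357, 363, 28.9, 38.7 and 222 CPM in the fat-1 EtOH libraries, each below the 922 to 2124 CPM of fat-1 PF. It fell by 2.90 (SE 0.63, edgeR adjusted p = 0.00329), and by 2.22 without the 3 libraries (edgeR adjusted p = 0.00209). The fat-1 PF libraries all lay above WT PF (495 to 822 CPM). In WT EtOH Guca2b held 270 to 358 CPM, a difference of -1.18 from WT PF (edgeR adjusted p = 0.459). For Ano1 the fat-1 PF libraries all lay below WT PF (11.4 to 14.4 CPM). WT EtOH held 14.4 to 16.7 CPM of Ano1, a difference of 0.28 (edgeR adjusted p = 0.730).

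Kcnma1, a calcium-activated potassium channel of epithelium and smooth muscle, rose by 1.85 (SE 0.41, edgeR adjusted p = 0.00355), and by 1.02 without the 3 libraries (edgeR adjusted p = 0.0167). Kcnk5 fell by 0.73 (SE 0.16, edgeR adjusted p = 0.00331), and by 0.66 without them. Neither passed when fat-1 PF 2 and 4 were also left out. Smooth muscle, whose markers rose with ethanol as given above, also expresses Kcnma1, and its part in this value was not tested. Among the pump genes, Atp1b1, a beta subunit of the sodium pump, held 1175 to 1939 CPM with EtOH and 2832 to 3744 CPM with PF in fat-1 mice, so that the groups did not overlap. It fell by 1.01 (SE 0.17, edgeR adjusted p = 7.14e-04), and by 0.81 without the 3 libraries. Atp1b3, another beta subunit, rose by 0.48 (SE 0.13, edgeR adjusted p = 0.0111). Fxyd3, a regulator of the pump, had the highest value of this role, 0.83 (SE 0.39, edgeR adjusted p = 0.103), and was at -0.13 without the 3 libraries.

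**Figure D5:**
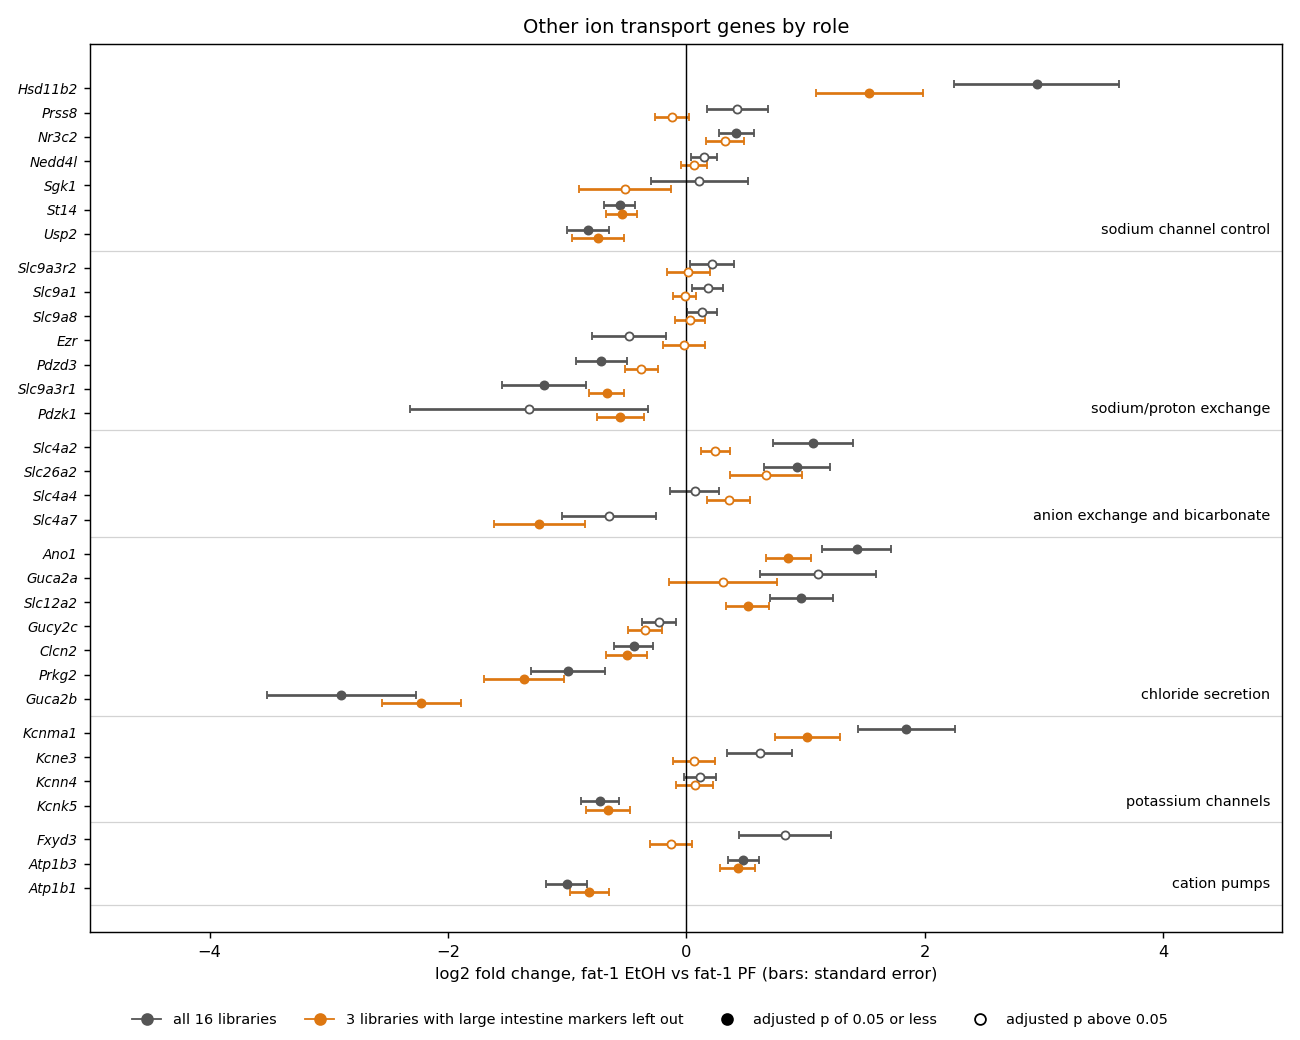
Log2 fold change (fat-1 EtOH vs fat-1 PF) of the further ion transport genes by role, with all 16 libraries (grey) and without the 3 libraries with large intestine markers (orange); bars are standard errors, filled points have an adjusted p of 0.05 or less, and Best2 and Slc26a1, near 0 counts with PF, are among those not drawn. Hsd11b2 (2.94) and Guca2b (-2.90) move most, and both keep their direction in the second fit.

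For each tested member, the genes of most like pattern over the 16 libraries were found as those with the smallest root mean square difference in log2 CPM, after centring each gene on its own mean. Scnn1b was closest to Best2 (0.33) and St6galnac6 (0.43), Scnn1a to Acads (0.15) and Slc4a2 (0.15), and Slc26a3 to the monocarboxylate transporter Slc16a1 (0.25) and Prdx6 (0.27). Scnn1b and Best2 passed the filter on low counts only through the libraries with large intestine markers, and lay at or under the floor elsewhere. Their likeness follows from this and gives no support. Slc26a6 was closest to the zinc transporter Slc30a2 (0.20), a small difference beside the SD of Slc26a6 itself (2.15). Slc9a3 was closest to Arl14 (0.64) and Gstk1 (0.66), beside its own SD of 1.41. The closest to Slc9a2 were Adcy6 (0.12) and Vdr (0.12), to Cftr Map3k21 (0.19) and Slc16a13 (0.20), and to Kcnq1 Srpr (0.13) and Dctn4 (0.14).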

How the data were processed

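Poly(A) RNA of the terminal ileum was sequenced as stranded paired-end libraries, 1 per mouse. The deposited file holds whole-number read counts for each Ensembl gene, without normalization. The authors aligned reads to mm10 (GRCm38) using tophat2, and counted them with htseq by the name of the table. The counting settings, strand use included, are not given in the sources used here. Positions and exon lengths are from GENCODE M21, and 26 of the 21965 genes had no entry there.

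Counts were analysed in R 4.3.3 with edgeR 4.0.16. After filterByExpr over the 4 groups and TMM scaling, all libraries entered a single robust quasi-likelihood fit of the group means. Adjustment was Benjamini-Hochberg over 13811 genes, with genes called at 0.05 or less. CPM use the TMM-adjusted library size, and standard errors of log2 values are those of the fit. Ratios were tested on log2(CPM + 0.5) by exact permutation of diet within genotype, over 4410 exchanges. Where no library of a group exceeded 3 counts, only a lower bound of the fold is printed. Scripts were tested on simulated data.

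The members and lists were chosen with earlier results of these data known. All 9 members are named, together with the highest and the lowest gene of each role with EtOH in fat-1 mice, up to 5 genes called in another comparison, and the 2 genes of most like pattern. Where only a few members of a role were called, these were named after their values were seen. Values of 2 genes that these rules name are not reported here. Alternatives were DESeq2 1.42.0, voom of limma 3.58.1, other size factors, other filters, a fit of only the 2 groups compared, a replicate block and leaving out each mouse. PF libraries are numbered 1 to 8 and EtOH libraries 9 to 16, so any effect of that order and the diet cannot be told apart. Same-numbered mice were not more alike than others (mean correlation of their deviations -0.0225 over 21 pairs against 0.00703 over 74). Figures were drawn with matplotlib 3.10.9.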

Additional observations from a re-analysis of the deposited data

Results flagged for a closer look

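In WT PF, Scnn1b and Scnn1g each had 1 count in WT PF 1 (0.109 CPM for either gene) and 0 counts in the other 3 libraries. Dixon's test, applied to the CPM of each member in the groups of 4 or 5 mice, marks any single count beside 0 in all others, so it does not show that this library stands apart. The value lies under the floor of 3 counts per library.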

How the results depend on the processing

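The number of members that passed with EtOH in fat-1 mice, 2 with all libraries, was 1 with DESeq2 (Scnn1a), 1 with voom (Slc9a3, lower, in place of both rising members), 4 with upper-quartile normalization, 1 with a filter of at least 10 counts in every mouse, 0 in a fit of only the 2 groups, and 0 to 4 when 1 mouse was left out: 0 without any of the 4 fat-1 PF mice or without fat-1 EtOH 3 or 4, and 4 without fat-1 EtOH 5, the library with the most B cell markers. Calls over all genes moved as well, to 40.3% with DESeq2, 26.8% with voom and 41% with upper-quartile normalization. They were 4519 of 11675 genes with the filter of 10 counts, 3086 of 13296 with only the 2 groups, and 3928 to 5430 when 1 mouse was left out. Averaged over genotypes, 0 members became 1 with voom (Slc9a3, -2.27), 1 with upper-quartile normalization (Scnn1a, 0.66) and 0 to 2 when 1 mouse was left out (2 without fat-1 EtOH 1 or 5). There 42.5% of all genes passed with voom and 5342 of 13811 with upper-quartile normalization. In WT mice the count of members became 1 with voom (20.7% of all genes). These counts include Scnn1b where it was called, which gives no support since it was tested only through the libraries in which it was high. The cause of these changes was not tested.

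The replicate number as a block gave 3 members averaged over genotypes (Scnn1a, Scnn1b and Kcnq1, or 2 without Scnn1b), but these numbers do not pair the mice. Of all genes, 4836 of 13811 passed there. The ratio of Slc26a3 to Slc26a6 passed the test only without fat-1 EtOH 2 or 5, and ranged from 1.28 to 2.25 over the 16 sets with 1 mouse left out.

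Leaving out 3 or 5 libraries was chosen after seeing the data. With 3 left out, Slc26a3 turned to -0.52 with EtOH in fat-1 mice and to -0.30 averaged over genotypes, and 3 members passed in the latter. With 5 left out, 1 member passed in fat-1 mice and 2 passed averaged over genotypes. For the other 35 genes, 20 calls in fat-1 mice (18 without Best2 and Slc26a1) became 11 in a fit of only the 2 groups, 13 without fat-1 PF 4, and 5 of 33 with 5 libraries left out. Calls over all genes went from 5170 of 13811 to 3086 of 13296, 4088 of 13787 and 1626 of 13716 in these fits. Upper-quartile normalization moved the median of all genes to 0.20 in fat-1 mice and to 0.14 averaged over genotypes, from 0.05 and 0.04. Scnn1g entered a test only with the loosest filter (adjusted p = 0.0230 in fat-1 mice, edgeR), which gives no support since the gene exceeded 2 counts only in fat-1 EtOH 3 and 4; this filter also left Scnn1b at an adjusted p of 0.0572. The fit of only the 2 groups was not run for the interaction or the averaged effect. Depth limits Scnn1b and Scnn1g, which were at or under 3 counts in 13 and 14 libraries.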
